A study of Mus musculus with 24 samples.

Results

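Mast cell and eosinophil genes were followed across 24 RNA libraries of mouse distal jejunum. The set held 10 genes, taken as every entry of the deposited tables whose gene symbol is Mcpt1, Mcpt2, Mcpt4, Cma1, Cpa3, Tpsb2, Fcer1a, Siglecf, Prg2 or Epx. These are 10 of 56691 genes listed, 34471 of them with a count anywhere in the series. The libraries form 8 groups of 3, defined by the sex of the mouse, its genotype (WT, here wild type, or Ptk6 -/- with the gene disrupted in the germline and so in every cell) and drinking water (regular water, or 100 mM succinate for 7 days). All were on a C57BL/6 background after more than 20 generations of backcrossing, and the animals were 9 to 11 weeks old at the end. Groups on regular water are called control, and groups on succinate succinate-treated. Mice came from 1 colony and different litters, and p-values measure only the spread between these libraries.

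Mast cells are tissue-resident granulocytes that carry a high-affinity receptor for IgE and store serine proteases and a carboxypeptidase in their granules. Mouse intestinal mast cells of the mucosa are known for the chymases Mcpt1 and Mcpt2, while those of connective tissue are known for Mcpt4, Cma1, Cpa3 and tryptase. Eosinophils store cationic proteins, among them major basic protein and eosinophil peroxidase, and carry the sialic acid-binding receptor Siglec-F, which is also found on intestinal tuft cells, the chemosensory epithelial cells that sense succinate. Both granulocytes take part in type 2 immune responses to intestinal worms and protists.

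Total counts lay between 8080321 and 52824743 per library, with a median of 43017686.5. The smallest library was replicate 1 of the succinate-treated Ptk6-/- males, in which a floor of 3 counts corresponded to 0.823 CPM (counts scaled to library size), against 0.0509 to 0.243 CPM in the other 23. An 18S ribosomal RNA entry took 29.7% of its counts, and 51.2% of those of replicate 1 of the control wild type males. In wild type females given succinate, replicate 2 held 21412 CPM of heart muscle transcripts and 74.3 CPM of Y-linked transcripts, against at most 0.971 CPM of the latter in the other 11 libraries labelled female. Results of tests that depended on these 3 libraries are given with and without them. Correlations were not recomputed without these libraries. Ptk6 itself had 284 to 2405 counts in wild type and 7 to 61 in Ptk6-/- libraries. All 8 enterocyte markers were above the floor in at least 12 libraries, so the labelled tissue was represented. Levels are given as TMM-normalized CPM within a gene, and as the deposited FPKM (per length of transcript) wherever genes are set beside each other. Because the tissue was sequenced in bulk, fewer cells of a type and less RNA per cell cannot be told apart.

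The members covered a wide range of levels. Mean FPKM over the 24 libraries was highest for Mcpt1 (32.1), followed by Mcpt2 (6.42), Siglecf (1.73), Prg2 (0.974), Cpa3 (0.510), Mcpt4 (0.292), Tpsb2 (0.180), Fcer1a (0.158), Cma1 (0.0327) and Epx (0.00878). Mcpt1 was above the floor in all 24 libraries, Mcpt2, Siglecf and Prg2 in 23, Tpsb2 in 21 and Cpa3 in 18. Detection was sparser for Mcpt4 (11 libraries), Fcer1a (8), Cma1 (7) and Epx (5). The highest count of any library was 11 for Epx and 10 for Cma1, so both stayed near the limit of detection throughout. The heat map of all members by library shows these differences in detection.

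**Figure D1:**
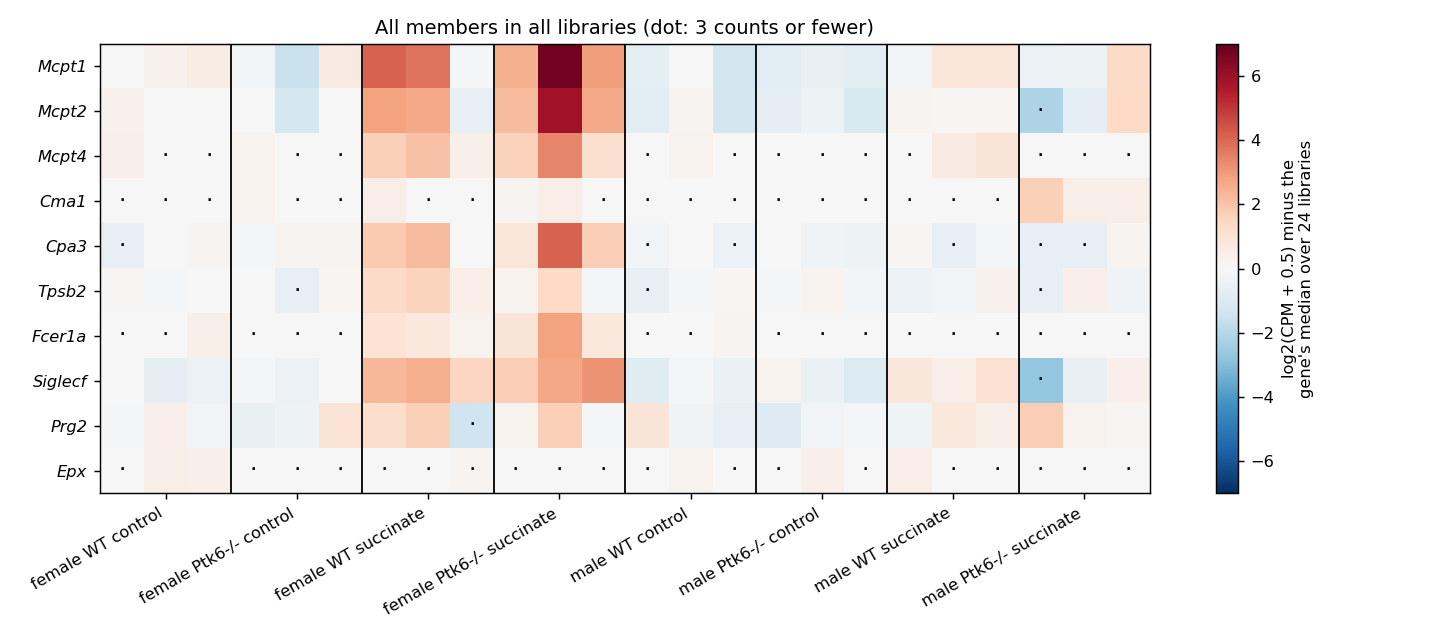
Each of the 10 members (vertical) in each of the 24 libraries (horizontal, in 8 groups of 3), as log2(CPM + 0.5) minus that gene's median over the libraries; dots mark libraries with at most 3 counts. Mcpt1, Mcpt2, Mcpt4, Cpa3 and Fcer1a are highest in the succinate-treated females, most of all in Ptk6-/- replicate 2, while Cma1 and Epx are at the floor in 17 and 19 libraries.

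The 4 chymase members lie together on chromosome 14. In the deposited GRCm39 positions Cma1 (ENSMUSG00000022225, minus strand) covers 56178908 to 56182132, Mcpt1 (ENSMUSG00000022227, plus strand) 56255428 to 56257841, Mcpt2 (plus strand) 56279498 to 56282099 and Mcpt4 (minus strand) 56297086 to 56299770. The interval spans 121 kb and holds 8 listed genes, 6 of them protein coding. Stretches of 50 bases shared with another gene's transcripts made up 5.48% of the Mcpt4 transcript (shared with Cma2) and 5.38% of that of Cma1, and 0% for Mcpt1 and Mcpt2. The sequenced reads were longer than 50 bases, and whether any were assigned to another gene was not tested. The remaining members lie elsewhere, Cpa3 on chromosome 3 (20269784 to 20296345, minus strand), Tpsb2 on chromosome 17 (25585279 to 25587070, plus strand), Fcer1a on chromosome 1 (173048851 to 173054781, minus strand), Siglecf on chromosome 7 (43000765 to 43008955, plus strand), Prg2 on chromosome 2 (84810805 to 84813976, plus strand) and Epx on chromosome 11 (87754826 to 87766362, minus strand).

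Upstream sequence from RefSeq (GRCm38.p6) was matched for 7 of the 10 members. Mcpt2, Tpsb2 and Prg2 were not matched. The 250 bases before the start of Mcpt1 (chr14:56017714-56017963, plus strand), Mcpt4 (chr14:56062311-56062560, minus strand), Cpa3 (chr3:20242182-20242431, minus strand), Fcer1a (chr1:173227230-173227479, minus strand) and Siglecf (chr7:43351091-43351340, plus strand) are printed because at least 5 of the 6 succinate-treated females stood above every control female for these genes. Each is 5′ to 3′ on the gene's strand, with GATAA, the core letters bound by GATA factors, in capitals on either strand (TTATC on the other).
Mcpt1: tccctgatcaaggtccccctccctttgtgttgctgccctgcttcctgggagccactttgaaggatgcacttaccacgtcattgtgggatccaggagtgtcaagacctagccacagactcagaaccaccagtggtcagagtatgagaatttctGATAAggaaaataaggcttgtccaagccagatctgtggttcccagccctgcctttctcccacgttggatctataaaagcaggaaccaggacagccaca
Mcpt4: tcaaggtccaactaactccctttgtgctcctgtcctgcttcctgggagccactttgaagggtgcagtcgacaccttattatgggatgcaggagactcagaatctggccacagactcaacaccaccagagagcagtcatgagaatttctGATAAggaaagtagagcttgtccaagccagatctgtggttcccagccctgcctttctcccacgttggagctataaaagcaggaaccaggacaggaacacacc
Cpa3: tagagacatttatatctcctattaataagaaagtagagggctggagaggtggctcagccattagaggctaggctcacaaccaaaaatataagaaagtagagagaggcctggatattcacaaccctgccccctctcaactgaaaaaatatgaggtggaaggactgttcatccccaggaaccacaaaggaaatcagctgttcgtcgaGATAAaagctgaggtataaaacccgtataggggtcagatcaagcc
Fcer1a: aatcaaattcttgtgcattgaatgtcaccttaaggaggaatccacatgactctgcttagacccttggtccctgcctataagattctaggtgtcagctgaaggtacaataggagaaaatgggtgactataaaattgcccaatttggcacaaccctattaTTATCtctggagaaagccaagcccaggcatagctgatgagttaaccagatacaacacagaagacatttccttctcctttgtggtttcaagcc
Siglecf: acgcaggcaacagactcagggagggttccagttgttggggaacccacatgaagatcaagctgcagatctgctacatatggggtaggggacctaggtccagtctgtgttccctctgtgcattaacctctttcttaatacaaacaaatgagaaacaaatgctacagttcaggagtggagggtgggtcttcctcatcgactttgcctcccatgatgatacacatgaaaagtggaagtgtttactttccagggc
GATAA on either strand was present in 5 of the 7 matched members (Mcpt1, Mcpt4, Cpa3, Cma1 and Fcer1a) and absent from these windows of Siglecf and Epx, beside 22.6% of all 32851 promoter windows of this length. It began 98 bases before the start in Mcpt1, 102 in Mcpt4 and 45 in Cpa3, in each on the gene's strand, and lay on the other strand in Fcer1a and Cma1. CATGTG, an E-box searched on both strands and not overlapping GATAA, was present in Fcer1a (1 match) and Siglecf (2 matches), beside 12.3% of all windows. The Mcpt1 and Mcpt4 windows were identical at 81.9% of aligned positions (208 of 254) and shared an unbroken run of 53 bases, whereas all other pairs of matched members were identical at 46.0% to 51.8%. These matches are a description of the letters in the windows.

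Mcpt1, a chymase of mucosal mast cells, was the most abundant member and covered the widest range. In control females its level was 5.62, 6.91 and 8.21 CPM in wild type and 4.84, 1.57 and 8.98 CPM in Ptk6-/-. After succinate it was 107, 85.0 and 5.33 CPM in wild type females and 32.9, 651 and 46.0 CPM in Ptk6-/- females. Of the 6 succinate-treated females, 5 stood above every control female, and wild type replicate 3 lay inside the control range. In males the control values were 3.24, 5.51 and 2.00 CPM in wild type and 3.01, 3.72 and 3.20 CPM in Ptk6-/-. Succinate-treated males had 4.78, 10.4 and 10.4 CPM in wild type and 4.11, 4.30 and 14.6 CPM in Ptk6-/-, with 3 of 6 above every control male. The group means were 66.0 ± 53.7 CPM in succinate-treated wild type females and 243 ± 353 CPM in their Ptk6-/- counterparts (SD, n = 3 each). Both exceeded those of the remaining groups, of which the highest was 8.52 ± 3.24 CPM in succinate-treated wild type males.

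Mcpt2, the second mucosal chymase, ran in parallel at a lower level. Control females had 2.32, 1.77 and 1.77 CPM in wild type and 1.77, 0.467 and 1.73 CPM in Ptk6-/-. Succinate-treated females had 15.2, 13.7 and 1.03 CPM in wild type and 10.2, 131 and 13.5 CPM in Ptk6-/-. The same library, wild type replicate 3, was again the one inside the control range. In succinate-treated males Mcpt2 was 2.11, 1.92 and 2.03 CPM in wild type, and 0, 0.911 and 5.46 CPM in Ptk6-/-, the 0 being the shallow library. The FPKM of Mcpt1 was 2.56 to 5.93 times that of Mcpt2 in the 12 control libraries (median 3.82) and 2.39 to 7.38 times in the 11 succinate-treated libraries with Mcpt2 above 0 (median 5.20).

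Cpa3, the carboxypeptidase stored with chymases in the granule, was scarce except in succinate-treated females. Its level was 0, 0.259 and 0.375 CPM in control wild type females and 0.189, 0.361 and 0.375 CPM in control Ptk6-/- females. With succinate it was 2.24, 3.08 and 0.232 CPM in wild type and 0.863, 12.7 and 1.98 CPM in Ptk6-/- females. All 12 males lay between 0 and 0.355 CPM, so the succinate-treated and control males overlapped. In females, 5 of 6 succinate-treated libraries exceeded the highest control.

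Mcpt4, a chymase of connective tissue mast cells, was at the floor in 4 of 6 control females and at most 0.131 CPM in the others. Succinate-treated females had 1.06, 1.56 and 0.129 CPM in wild type and 1.01, 4.89 and 0.594 CPM in Ptk6-/-. Among the succinate-treated males it was above the floor in wild type replicates 2 and 3 (12 and 18 counts) and at 0 counts in all 3 Ptk6-/- libraries. Fcer1a, which encodes the IgE-binding chain of the high-affinity receptor, was at the floor in 10 of 12 controls. Its counts were 20, 10 and 4 in succinate-treated wild type females and 25, 155 and 20 in Ptk6-/- females, against 0, 0 and 8 in the wild type controls and 0 in each of the 3 Ptk6-/- controls. In the 6 succinate-treated males Fcer1a had 0 counts, which allows up to 0.0527 to 0.823 CPM by the floor of each library.

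Tpsb2, a tryptase, had a narrower range. Control females had 0.285, 0.216 and 0.243 CPM in wild type and 0.260, 0 and 0.318 CPM in Ptk6-/-. Succinate-treated females had 1.43, 1.75 and 0.541 CPM in wild type, all above the controls, and 0.378, 1.48 and 0.187 CPM in Ptk6-/-. Males stayed between 0 and 0.455 CPM. Cma1, a further connective tissue chymase, had 4, 6 and 7 counts in the succinate-treated Ptk6-/- males and 0 counts in each of the other 9 male libraries. These 3 values are 1.10, 0.171 and 0.155 CPM, of which the highest rests on 4 counts in the shallow library. Cma1 was below the minimum of 10 counts in 3 libraries and was not tested.

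**Figure D2:**
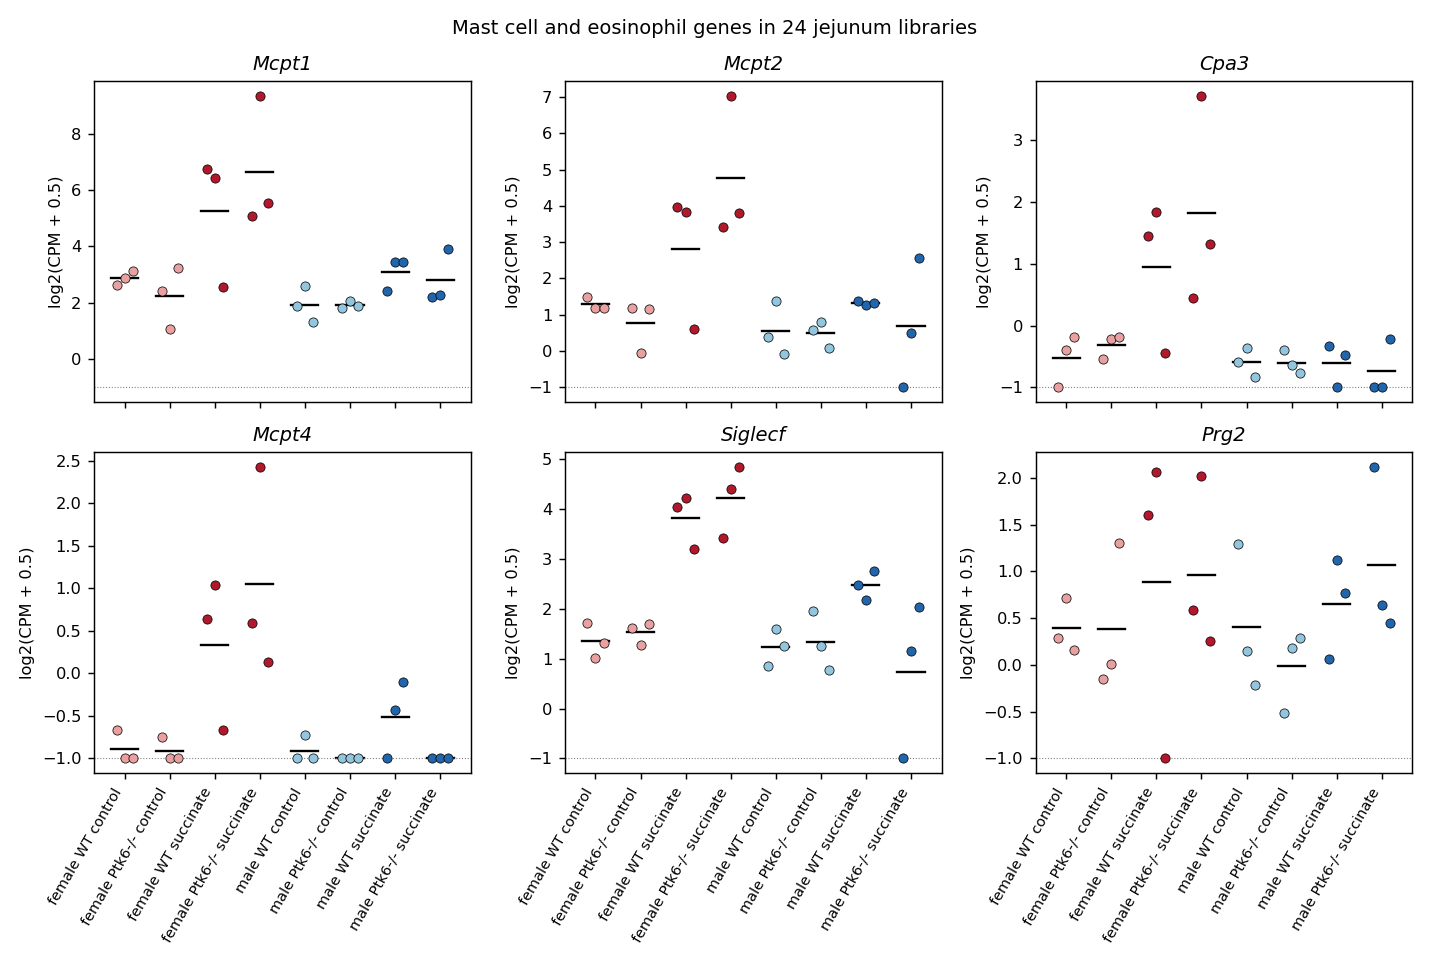
Levels of 6 members in each library as log2(CPM + 0.5), by the 8 groups; points are libraries, bars are group means and the dotted line is 0 CPM. Siglecf in the 6 succinate-treated females (8.68 to 28.1 CPM) is above the 6 control females (1.51 to 2.78 CPM), whereas for Mcpt1, Mcpt2, Cpa3 and Mcpt4 5 of 6 are above the controls and Ptk6-/- replicate 2 stands far above the others.

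Siglecf, the sialic acid-binding receptor of eosinophils and tuft cells, was the only member for which all 6 succinate-treated females exceeded all 6 control females, as for 0.989% of 20531 genes. It had 2.78, 1.51 and 1.99 CPM in control wild type females and 2.58, 1.91 and 2.71 CPM in control Ptk6-/- females. Succinate-treated females had 15.9, 18.1 and 8.68 CPM in wild type and 10.1, 20.7 and 28.1 CPM in Ptk6-/-. Replicate 2 of the latter group, which led for the mast cell proteases, was thus not the highest for Siglecf, where replicate 3 was. Control males had 1.29, 2.50 and 1.88 CPM in wild type and 3.38, 1.89 and 1.20 CPM in Ptk6-/-. Succinate-treated wild type males had 5.03, 4.03 and 6.25 CPM, all above the wild type controls. Succinate-treated Ptk6-/- males had 0, 1.74 and 3.61 CPM, the 0 being the shallow library. The group means of succinate-treated males were 5.10 ± 1.11 CPM in wild type and 1.78 ± 1.81 CPM in Ptk6-/- (SD, n = 3 each). The libraries did not overlap, as for 5.88% of genes in that direction.

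Prg2, which encodes eosinophil major basic protein, overlapped between treatments. Control females had 0.722, 1.14 and 0.618 CPM in wild type and 0.402, 0.510 and 1.96 CPM in Ptk6-/-. Succinate-treated females had 2.54, 3.67 and 0 CPM in wild type and 1.01, 3.55 and 0.695 CPM in Ptk6-/-. In Ptk6-/- males the control values of 0.202, 0.637 and 0.719 CPM lay below the succinate-treated values of 3.84, 1.05 and 0.865 CPM, the highest of which rested on 14 counts in the shallow library. Epx, eosinophil peroxidase, had 0 counts in all 6 Ptk6-/- females and reached at most 11 counts elsewhere.

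A single library carried much of the mast cell signal. Replicate 2 of the succinate-treated Ptk6-/- females held 63.0% of the CPM of Mcpt1 summed over the 24 libraries, 61.5% of Mcpt2, 61.2% of Fcer1a, 51.8% of Cpa3 and 47.7% of Mcpt4. Its Mcpt1 level was 16.5 times the mean of replicates 1 and 3 of its group, with 11.1 times for Mcpt2, 8.91 for Cpa3, 7.75 for Fcer1a, 6.11 for Mcpt4, 5.25 for Tpsb2 and 4.17 for Prg2. For Siglecf the ratio was 1.08. This library also had the highest summed level of the further eosinophil genes (66.8 CPM, next 26.2 CPM) and the lowest of enterocyte genes (5716 CPM, next 9559 CPM). Of that eosinophil sum, Alox15 gave 19.8 CPM, Cebpe 12.9 CPM and Ccr3 9.83 CPM, while the member Epx had 0 counts in this library. The sums of neutrophil genes (42.0 CPM) and group 2 innate lymphoid cell genes (108 CPM) were also highest in it. Retnlg gave 38.8 CPM of the former, and Il1rl1, which is also in the list of further mast cell genes, 77.7 CPM of the latter. Their part in the mast cell signal was not tested. Together the 6 succinate-treated females held 94.8% of the summed Fcer1a, 90.2% of Mcpt4, 89.8% of Mcpt1 and 37.6% of Prg2.

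Whether succinate changed the members was first tested as the succinate effect averaged over sex and genotype, in 1 edgeR quasi-likelihood fit of all 24 libraries, where a gene was called if its fold change was at least 2 and its p, adjusted by Benjamini and Hochberg, was under 0.05. Called were 3 members, all higher after succinate, beside 0.603% of 20562 genes called higher (0.691% in either direction). Mcpt1 rose by a log2 fold change of 2.83 (SE 0.49, adjusted p = 0.00422), Mcpt2 by 2.45 (SE 0.51, adjusted p = 0.0196) and Siglecf by 1.78 (SE 0.29, adjusted p = 0.00198). The values of Cpa3 (1.80, SE 0.64, adjusted p = 0.191), Tpsb2 (1.11, SE 0.54, adjusted p = 0.311, though 0.0326 with voom) and Prg2 (1.06, SE 0.53, adjusted p = 0.328) did not pass, though 4 of the 6 members with a value had an unadjusted p under 0.05 (15.9% of genes). Mcpt4 and Fcer1a had groups with 0 counts in every library and so no finite average, and Cma1 and Epx fell below the count minimum. The 6 members with a value had a median log2 fold change of 1.79 and were all above 0, beside a median of −0.00202 and 49.8% above 0 over all genes. Without replicate 2 of the succinate-treated Ptk6-/- females, Mcpt1 had a value of 2.18 and kept its call, and Mcpt2 (1.92) had an adjusted p of 0.0570. Mcpt2 also lost its call without replicate 3 of the succinate-treated Ptk6-/- males (1.99, adjusted p = 0.0580), and without the 3 libraries that stand apart (2.45, adjusted p = 0.0516). Limma on log2(FPKM + 1) called neither Mcpt1 (adjusted p = 0.0532) nor Mcpt2. In an additive model of sex, genotype and treatment, chosen after the values were seen, Mcpt1 and Siglecf were called and Mcpt2 was not (adjusted p = 0.0844). In that model Mcpt4 had a log2 fold change of 4.20 (SE 1.00, adjusted p = 0.0489) and Fcer1a 2.70 (SE 1.26, adjusted p = 0.298), but both reached 10 counts in succinate-treated libraries alone, so their direction was set by the filter.

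**Figure D3:**
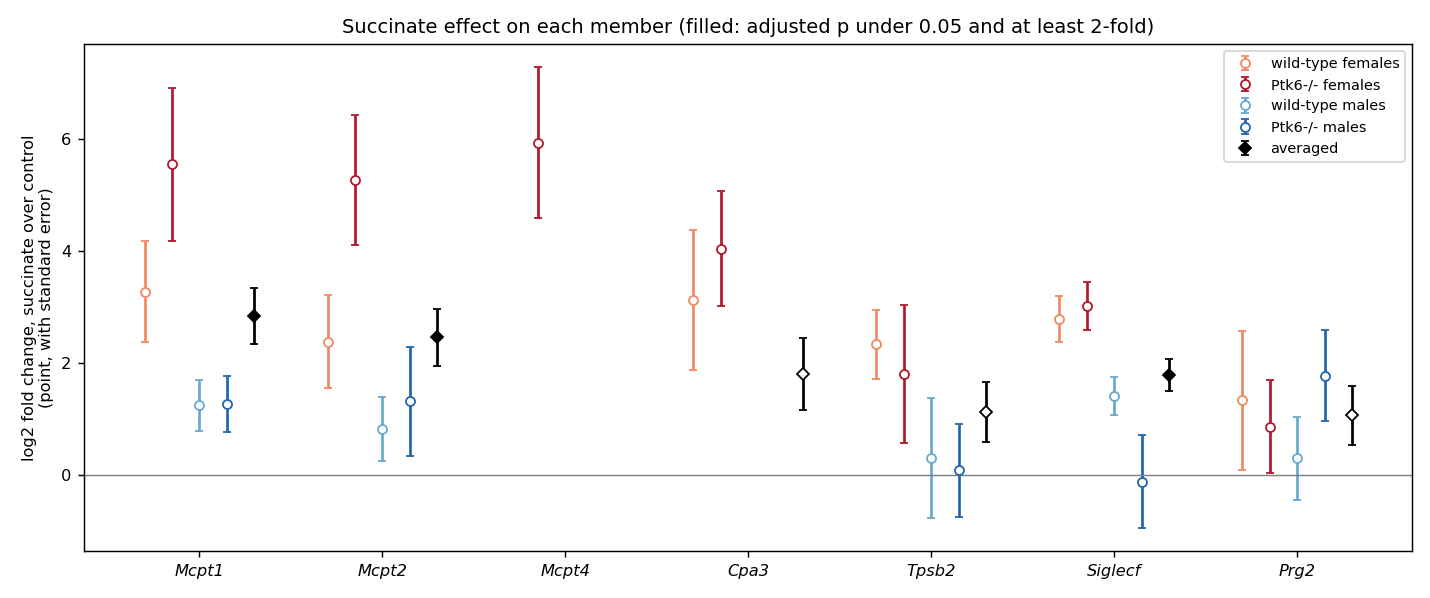
Log2 fold change of succinate over control with its standard error from edgeR, for 7 members, in each of 4 groups of mice and averaged over them; filled points passed both thresholds. Values against a control group wholly at the floor are not drawn, and that of Mcpt4 in Ptk6-/- females rests on 4 control counts. The averaged values of Mcpt1 (2.83), Mcpt2 (2.45) and Siglecf (1.78) are the filled ones.

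Within single groups the comparisons rest on 3 libraries against 3. In wild type females, 5 of the 6 members with a value had an unadjusted p under 0.05 (7.77% of all 18872 genes tested), but 0 members and 0 genes (0%) were called by edgeR. The 18S share of counts also did not overlap between these groups (0.161% to 0.215% in controls and 0.981% to 3.80% with succinate). Its part was not tested. Siglecf had a log2 fold change of 2.78 (SE 0.40, adjusted p = 0.180) and Tpsb2 of 2.33 (SE 0.62, adjusted p = 0.547), and for these 2 the libraries did not overlap, as for 5.96% of genes in the same direction. Without replicate 2, the library with heart muscle and Y-linked transcripts, these values were 2.59 and 2.02. The calls depended on replicate 3 of the treated group. Without it, edgeR called Mcpt1, Mcpt2, Tpsb2 and Siglecf among 597 genes. With all libraries, DESeq2 called Mcpt1 and Siglecf among 258 genes, voom with sample quality weights called Siglecf, and limma on log2(FPKM + 1) called 0 members.

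In Ptk6-/- females 8 members were tested, of which Mcpt4 and Fcer1a reached the count minimum only through the succinate-treated libraries, so that their direction was set by the filter. The other 6 members all had higher fitted levels with succinate (47.2% of all genes did). Of these 6, 4 had an unadjusted p under 0.05, beside 10.7% of 19334 genes, and 4 had libraries that did not overlap (11.2% of genes in that direction), while 17 genes (0.0879%) and 0 members were called by edgeR. Mcpt4 was at least 26.5-fold higher, with the 2 control libraries at 0 counts taken at the floor of 3 (adjusted p = 0.271), and at least 9.81-fold higher without replicate 2 of the succinate-treated group. Mcpt1 had a log2 fold change of 5.55 (SE 1.36, adjusted p = 0.304) and Mcpt2 of 5.26 (SE 1.17, adjusted p = 0.254). Cpa3 had 4.04 (SE 1.03, adjusted p = 0.332) and Siglecf 3.01 (SE 0.43, adjusted p = 0.0971). Fcer1a was at least 17.4-fold higher, taken against the floor of 3 counts per control library (adjusted p = 0.290), and at least 5.35-fold higher without replicate 2 of the succinate-treated group. Without that library the log2 fold changes were 2.92 for Mcpt1, 3.14 for Mcpt2, 2.18 for Cpa3, 0.53 for Tpsb2 and −0.19 for Prg2. Without replicate 1 of that group edgeR called Siglecf, and the number of all genes called in that fit is not given here. DESeq2 called Mcpt4, Cpa3, Fcer1a and Siglecf among 436 genes, voom Fcer1a and Siglecf, and limma on log2(FPKM + 1) 0 members. DESeq2 and voom also called more genes in all than the 17 of the main fit.

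In wild type males 0 members and 0 of 19183 genes (0%) were called by edgeR, and 2 members had an unadjusted p under 0.05, beside 4.07% of genes. Siglecf had a log2 fold change of 1.41 (SE 0.34, adjusted p = 0.947) with libraries that did not overlap, as for 4.62% of genes in that direction, and 1.24 without replicate 1 of the controls. The summed B cell follicle genes did not overlap between these groups either (22.0 to 88.7 CPM in controls and 112 to 133 CPM with succinate). Their part was not tested. DESeq2 and limma on log2(FPKM + 1) called 0 members, voom called Mcpt1 and Siglecf among 1498 genes, and edgeR without replicate 1 of the succinate-treated group called the same pair among 1077. In Ptk6-/- males 0 of 18966 genes (0%) were called by edgeR, 1 member had an unadjusted p under 0.05 (7.75% of genes), and 0 members were called by DESeq2, voom or limma on log2(FPKM + 1). Mcpt1 had a log2 fold change of 1.26 (SE 0.50, adjusted p = 0.600) and Prg2 of 1.76 (SE 0.82, adjusted p = 0.600). Those 2 and the untested Cma1 had libraries that did not overlap, as had 11% of genes tested in that direction. Siglecf had −0.13 there, and 0.27 without the shallow replicate 1 of the succinate-treated group, so its direction rested on that library. Without the same library Mcpt1 had 1.48 and Prg2 0.87, whereas Mcpt1 had 0.41 without replicate 3, which held its highest level.

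The fitted succinate effects were higher in females than in males for the 6 members with a value (50.7% of all genes), and 0 of these differences passed the test. The difference of the succinate effect between the sexes, a comparison added after the values were seen, was called for 15 of 20562 genes (0.073%) and 0 members by edgeR, with 4 members at an unadjusted p under 0.05 (7.57% of genes). Siglecf had a difference, females minus males, of 2.23 on the log2 scale (SE 0.56, adjusted p = 0.183) and Mcpt1 of 3.16 (SE 0.95, adjusted p = 0.266). Mcpt2 had 2.73 (SE 0.98, adjusted p = 0.402) and Cpa3 3.57 (SE 1.29, adjusted p = 0.407), against 0.08 for Prg2. Without replicate 2 of the succinate-treated Ptk6-/- females the differences were 1.88 for Mcpt1, 1.71 for Mcpt2, 2.68 for Cpa3 and 2.24 for Siglecf. DESeq2 called Siglecf, and voom and limma on log2(FPKM + 1) called 0 members.

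The sex effect averaged over genotype and treatment was called for Mcpt1, which was higher in females by a log2 fold change of 2.36 (SE 0.49, adjusted p = 0.0307), among 57 of 20562 genes (0.277%). Mcpt2 (1.99, adjusted p = 0.0779), Cpa3 (2.40, adjusted p = 0.108) and Siglecf (1.25, adjusted p = 0.0513) did not pass, and 4 members had an unadjusted p under 0.05 (14.6% of genes). The call of Mcpt1 held in 9 of 24 fits that left out 1 library each, in which its value ranged from 1.70 (without replicate 2 of the succinate-treated Ptk6-/- females) to 2.59 and its adjusted p from 0.00339 to 0.0765. The call was also lost without the 3 libraries that stand apart (2.25, adjusted p = 0.105), with limma on log2(FPKM + 1) (1.84, adjusted p = 0.0827) and in the additive model (2.46, adjusted p = 0.132). Fits with the replicate number as a block, with or without the gene length offset, lost it too. This effect combines control and succinate-treated mice. Among controls alone, Mcpt1 had a median of 6.27 CPM in the 6 females (1.57 to 8.98) and 3.22 CPM in the 6 males (2.00 to 5.51), with overlap.

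Loss of Ptk6 was not called for any member. Averaged over sex and treatment, edgeR called 4 of 20562 genes (0.0195%) and 0 members. The 6 members with a value lay between −0.17 and 0.47 on the log2 scale (Ptk6-/- minus wild type), with adjusted p from 0.695 to 0.980 and 0 at an unadjusted p under 0.05 (12.8% of genes). The same number came from DESeq2, voom and FPKM-based limma. In control males 142 genes (0.739%) were called and in control females 3 (0.0158%), with 0 members in either. The members ranged from −0.85 to 0.37 and from −0.53 to 0.56, and 0 had an unadjusted p under 0.05 (25.2% and 11.1% of genes). In succinate-treated females 0 genes (0%) were called, and members ranged from −0.86 to 2.37, with 0 at an unadjusted p under 0.05 (4.52% of genes). That upper end rested on Ptk6-/- replicate 2. Without it Mcpt2 fell from 2.37 to 0.26, Mcpt1 turned from 1.88 to −0.73 and Cpa3 from 1.49 to −0.36, and Tpsb2 had −2.12 (adjusted p = 0.872). In succinate-treated males 0 genes (0%) were called and 0 members had an unadjusted p under 0.05 (2.72% of genes). Siglecf had a log2 fold change of −1.36 in Ptk6-/- over wild type (SE 0.80, adjusted p = 1.00), with libraries that did not overlap, as for 5.88% of genes in that direction, while the untested Cma1 was above in all 3 Ptk6-/- libraries (2.78% of genes tested). Without the shallow replicate 1 of the Ptk6-/- group the value of Siglecf was −0.96, and without replicate 3 it was −2.21. In each of these 4 comparisons 0 members were called by DESeq2, voom or FPKM-based limma.

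Whether the succinate effect differed between genotypes was tested as an interaction within each sex. For males 0 of 20121 genes (0%) and for females 0 of 20210 genes (0%) were called by edgeR, and 0 members had an unadjusted p under 0.05 in either (3.36% and 6.11% of all genes). The 3-way interaction of sex, genotype and succinate gave 0 of 20562 genes (0%) and 0 members under 0.05 (5.2% of genes). No member was called in the 3 interactions by DESeq2, voom or limma on log2(FPKM + 1). The comparisons of succinate and genotype draw on the same libraries, so their values are not independent.

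Of the 7 mast cell members, 6 varied together. Over the 24 libraries, Pearson's r of log2(CPM + 0.5) among Mcpt1, Mcpt2, Mcpt4, Cpa3, Tpsb2 and Fcer1a was 0.68 to 0.96 (15 pairs, median 0.91), and after subtracting each group's mean it was 0.63 to 0.91 (median 0.79). The libraries share depth and RNA composition, and many low values lie at the floor, so these are descriptions. Without replicate 2 of the succinate-treated Ptk6-/- females the range was 0.61 to 0.93. By rank over all libraries the relation was looser, with Spearman's rho of 0.30 to 0.89 (median 0.59). The highest pair was Mcpt1 with Mcpt2 (r = 0.96). Cma1, at the floor in 17 libraries, had r of −0.03 to 0.16 with the 6. Siglecf had r of 0.66 to 0.84 with these 6 genes over all libraries and 0.11 to 0.67 after subtracting group means. With Prg2, the other eosinophil gene detected in most libraries, Siglecf had r = 0.10, or −0.20 within groups, and with Epx −0.14. Prg2 had r of 0.40 to 0.59 with the mast cell genes. The eosinophil members did not form a block of the kind seen for these 6 mast cell members in the plot of correlations.

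**Figure D4:**
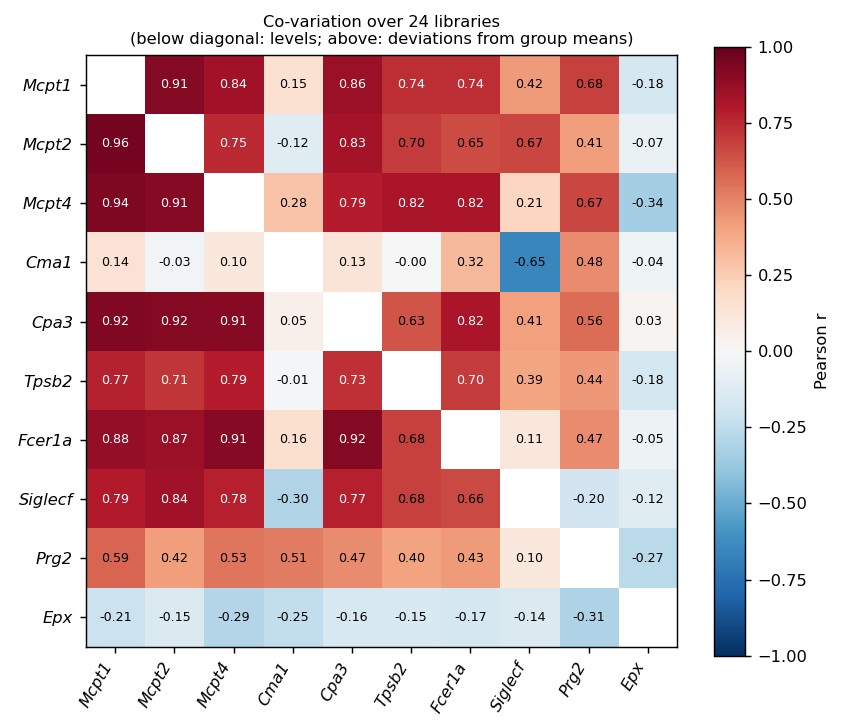
Pearson's r between members over 24 libraries, from log2(CPM + 0.5) below the diagonal and from deviations from group means above it. Mcpt1, Mcpt2, Mcpt4, Cpa3, Tpsb2 and Fcer1a form a block (0.68 to 0.96 below, 0.63 to 0.91 above), while Siglecf and Prg2 have 0.10 and −0.20.

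Genes outside the set that most resembled each member were found among 16617 candidates by Pearson's r over the 24 libraries. For Mcpt1 they were Cma2 (0.97) and Mcpt9 (0.96), which lie in the same chromosome 14 interval, and Retnlb (0.95), a goblet cell effector. Mcpt2 had Mcpt9 (0.94), Cma2 (0.93) and Klrg1 (0.91), and Cpa3 had Cma2 (0.96), Il13 (0.95) and Wee2 (0.94). Siglecf had Alox5 (0.98), which is in the list of mast cell enzymes that make lipid mediators and is also known in tuft cells, and Gsdmcl2 (0.96). Tpsb2 had Casq1 (0.89) and Gng13 (0.88), and Prg2 had Ramp3, Lsp1 and Ndufa3 (0.88 each).

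Because Siglec-F is shared by eosinophils and tuft cells, Siglecf was set beside both marker lists. Its r with the summed level of 12 tuft cell genes was 0.93, against 0.47 with the summed level of 12 further eosinophil genes (24 libraries). For Prg2 these were 0.37 and −0.01. Of the 12 further eosinophil genes, 6 were above the floor in at least 12 libraries and 2 were at the floor in all. Csf2rb alone gave 14.8 of the 21.9 CPM of that sum in replicate 1 of the succinate-treated wild type males. The eosinophil sum may therefore not follow eosinophils. The tuft cell sum was 48.9 to 76.9 CPM in control females, 148 to 470 CPM in succinate-treated females, 53.5 to 65.4 CPM in control males and 48.5 to 137 CPM in succinate-treated males. Siglecf per 100 CPM of tuft cell transcripts was 2.87 to 5.10 CPM in control females and 3.49 to 5.99 CPM in succinate-treated females, so the ratio overlapped where the level itself did not. Mcpt1 per 100 CPM of tuft cell transcripts was 2.36 to 14.1 CPM in control females and 3.60 to 163 CPM in succinate-treated females (median 18.2 CPM). It also overlapped, with 2 of the 6 treated libraries inside the control range and a maximum of 23.6 CPM without Ptk6-/- replicate 2. The tuft cell sum was related to other members too, with r = 0.87 for Mcpt1, 0.85 for Mcpt4 and 0.84 for Mcpt2, and Siglecf had r = 0.94 with the summed gasdermin C genes and 0.85 with the further mast cell genes. The part of tuft cells or of eosinophils in the Siglecf result was not tested.

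**Figure D5:**
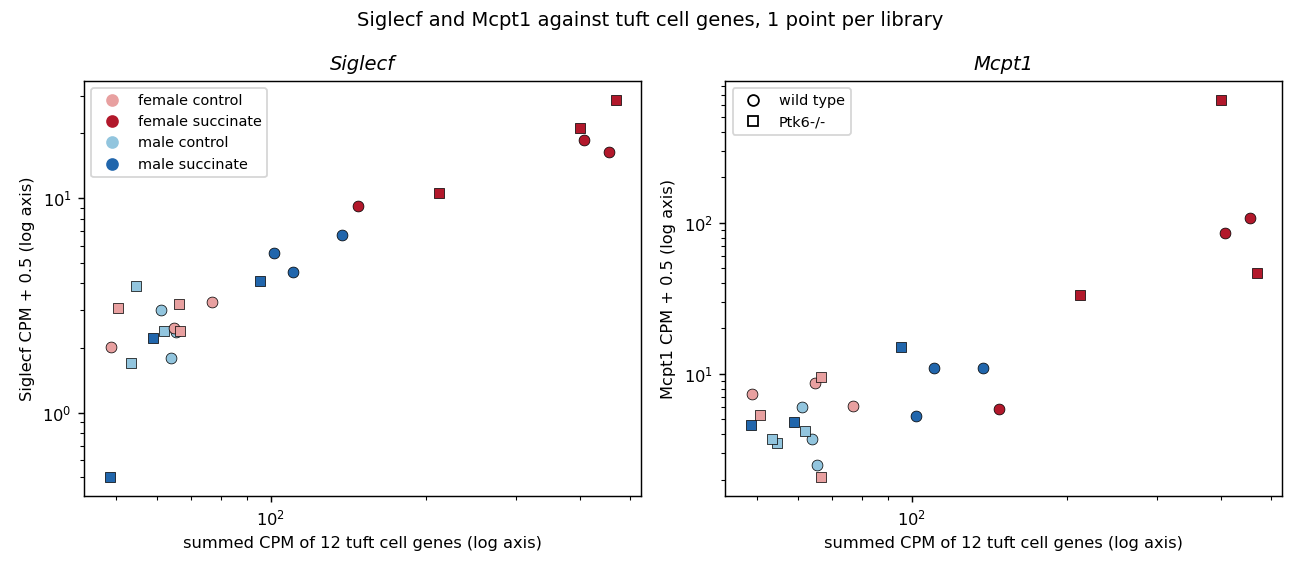
Siglecf and Mcpt1 (CPM + 0.5, log axis) against the summed CPM of 12 tuft cell genes (log axis), 1 point per library, by sex and treatment. Both are higher where the tuft cell sum is higher (r = 0.93 for Siglecf and 0.87 for Mcpt1), and Mcpt1 spreads from 5.33 to 651 CPM among the succinate-treated females.

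Other genes of the 2 cell types gave a mixed picture in the averaged succinate effect. Of 18 further mast cell genes, 11 had a value, 9 of them above 0 with a median log2 fold change of 0.47, and 1 was called. This was Rgs13 (1.82, adjusted p = 0.00550), which is also known in tuft cells. Mcpt9, a mucosal chymase, had 2.66 (adjusted p = 0.125). Of 12 further eosinophil genes, 6 had a value, 5 were above 0 (median 0.68) and 0 were called by edgeR. Among the eosinophil ribonucleases Ear2 had 1.22 (adjusted p = 0.146), whereas Ear6 and Ear10 were at the floor in all libraries and Ear1 reached 6 counts. Among basophil markers, Mcpt8 reached at most 6 counts and Cd200r3 at most 5, while Il3ra and Fcer1g, which other leukocytes also express, were above the floor in all 24 libraries, and 0 were called. Of 11 genes of signalling from the IgE receptor with a value, 0 were called (median 0.08). Of 12 growth and recruitment factors with a value, 1 was called, the eosinophil-attracting chemokine Ccl24 (2.59, adjusted p = 0.0214), which had a median of 0.619 CPM in control and 5.93 CPM in succinate-treated females. Of 7 enzymes that make lipid mediators, 2 were called, Alox5ap (1.93, adjusted p = 0.00187) and Alox5 (1.68, adjusted p = 0.00375), both also known in tuft cells. Of 12 tuft cell genes, 10 were called higher (median 1.62).

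Summed markers of other cell types stood beside these results. In females the sum of the group 2 innate lymphoid cell list did not overlap between control (10.7 to 26.3 CPM) and succinate (27.5 to 108 CPM), but the list shares Il1rl1 with the further mast cell genes and Il17rb with the tuft cell genes, and its Gata3 overlapped (0.552 to 1.88 CPM and 1.29 to 4.12 CPM). The tuft cell sum and the summed gasdermin C genes (114 to 208 CPM and 788 to 4381 CPM) did not overlap either. The ranges of enterocyte, T cell and smooth muscle transcripts overlapped. Summed enterocyte transcripts were 15912 to 31570 CPM in control females and 5716 to 21750 CPM in succinate-treated females, and T cell transcripts 44.9 to 104 CPM and 28.3 to 51.6 CPM. In males T cell transcripts were 47.0 to 65.8 CPM in controls and 56.9 to 70.4 CPM with succinate. In females smooth muscle transcripts were 2150 to 4813 CPM and 3828 to 7939 CPM. In the averaged succinate effect the enterocyte list had 0 of 8 called (median −0.64), the T cell list 0 of 6 (median −0.42) and the smooth muscle list 1 of 7 (median 0.78). Over the 24 libraries Mcpt1 had r = −0.72 with the enterocyte sum (Spearman's rho −0.26) and 0.72 with the smooth muscle sum (rho 0.81). The part of tissue composition in the changes of Mcpt1, Mcpt2 and Siglecf was not tested.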

How the data were processed

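Stranded poly(A) libraries of distal jejunum (RIN above 7) were trimmed by the authors with Cutadapt 1.9, mapped with HISAT2 2.0.4 and assembled with StringTie 1.3.4d. The submitters' processing notes name GRCm39. The authors deposited raw read counts per gene, for which the counting program is not given in the sources used here, and FPKM from ballgown. The authors' methods use DESeq2 and edgeR at the same thresholds as here.

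The main test was the quasi-likelihood test of edgeR 4.0.16 (R 4.3.3) after TMM scaling. A gene was tested where 3 or more libraries of the comparison reached 10 counts. Comparisons of 2 groups were fitted on their own 6 libraries, and averaged effects and the 3-way interaction on all 24. An averaged effect has no value for a gene with a group wholly at 0 counts. Calls needed an adjusted p under 0.05 and a fold change of at least 2. Counts of 3 or fewer were a floor, and floors cover counting error only. Alternatives were DESeq2 1.42.0, its size factors in edgeR, no filter, the replicate number as a block, a gene length offset, limma 3.58.1 (voom; log2(FPKM + 1)), 1 fit for all libraries and leaving out each library. The method was tested on simulated data. All 10 members were named in every comparison, with tests for those called or not overlapping and for all in the averaged succinate effect. Other genes came from 22 marker lists, with at most 4 examples each. Likeness was ranked for members above the floor in at least 12 libraries, leaving out Gm and Rik names. Some genes in that ranking are not reported here. The members and lists were chosen with earlier results of these data known. No library was left out of the tests unless stated.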

Additional observations from a re-analysis of the deposited data

How the results depend on the processing

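The averaged succinate effect was called for 3 members in the fit reported and for 2 to 3 when 1 library was left out. Voom called 4 (Tpsb2 added; 680 genes in all, against 142) and limma on log2(FPKM + 1) 1 (Siglecf; 52 genes). The leave-one-out values of Siglecf were at least 1.58 and those of Mcpt1 at least 2.18, all called. For the averaged sex effect, called for 1 member, the number was 4 with DESeq2 (257 genes called in all, against 57), 3 without a filter on low counts (85), 2 with DESeq2's size factors (57), with the gene length offset (58) and with voom (236), and 0 with the replicate block, the replicate block with the gene length offset, limma on log2(FPKM + 1), the additive model and without the 3 libraries that stand apart. The settings that gave 0 called 29 to 41 genes in all. Leaving out 1 library gave 0 to 4. For succinate in Ptk6-/- females, called for 0 members, DESeq2 gave 4 (436 genes in all, against 17), all 24 libraries in 1 fit 3 (Mcpt1, Mcpt2 and Siglecf; 132 genes), voom 2 (200 genes) and leaving out 1 library 0 to 1. Among these calls, Mcpt4 and Fcer1a with DESeq2 and Fcer1a with voom had their direction set by the filter. For succinate in wild type females, called for 0, DESeq2 gave 2 (258 genes), voom 1 (37), all 24 libraries in 1 fit 1 (87) and leaving out 1 library 0 to 4. For succinate in wild type males, called for 0, voom gave 2 (1498 genes) and leaving out 1 library 0 to 2. For the difference of the succinate effect between the sexes, called for 0, DESeq2 gave 1 (177 genes). The cause of these differences between settings was not tested. No member's value changed sign with a call lost or gained. The additive model and the omission of 3 libraries were chosen after the values were seen.

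Libraries with the same replicate number did not deviate together (28 pairs for each number, r from −0.48 to 0.50), and 9 of 24 correlated best with their own number, so the numbers were not treated as pairs. The replicate block changed the number of members called only in the averaged sex effect. Some fits without 1 library gave no value for Fcer1a, Mcpt4 or Cpa3, where a group was then wholly at 0. Depth limits Cma1, Epx, Fcer1a and Mcpt4, which were at the floor in 13 to 19 of 24 libraries.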
